A study of Mus musculus with 10 samples.

Results

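The genes examined were 10 genes of the circadian clock and its output, *Per1*, *Per2*, *Per3*, *Cry1*, *Cry2*, *Arntl*, *Clock*, *Nr1d1*, *Dbp* and *Tef*, chosen by gene symbol from the 26888 genes of an RNA-seq expression table. Expression was measured in OP9 cells, a stromal line from the calvaria of op/op mice, which lack functional M-CSF, labelled as foetal and described in the study as newborn, with the strain label (C57BL/6xC3H)F2-op/op, in 6 reaggregates and 4 flat submersed cultures. OP9 is 1 established line, so the libraries are cultures of this line and not animals, and the labels do not say whether the reaggregates were set up separately, so p-values measure only the spread between these samples. Reaggregates were kept for 48 h on nitrocellulose filters where liquid meets gas, and reaggregates 2, 4 and 6 received IL-3, which the label gives at 200 µg/µl, whereas reaggregates 1, 3 and 5 did not. The study's methods use the same unit for these cultures, and ng/ml for IL-3 in other reaggregates, so the printed unit may be a slip. The study's methods describe pelleting of trypsin-treated cells to form the reaggregates, and enzyme treatment with collagenase/dispase to break them up before RNA extraction. Flat cultures grew on plastic under medium without reaggregation, and no such break-up is described for them. Effects of this handling and of reaggregated culture cannot be told apart here. Flat cultures 2 and 4 carry the name of the de Bruijn laboratory, while the labels of flat cultures 1 and 3 name none. The study's methods say that cells of the flat cultures came from the Medvinsky or the de Bruijn group, without naming libraries. They put the variance by cell source level with that by passage number. The source of the cells that were reaggregated and the hour at which any culture was harvested were not given in the sources used here.

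The clock of mammalian cells is a feedback loop of transcription. ARNTL (also called BMAL1) and CLOCK bind as a pair to E-box sequences and activate the *Per* and *Cry* genes, whose proteins return to the nucleus and repress that pair. A connected loop runs through the nuclear receptor NR1D1 (REV-ERBα), which represses *Arntl*, and the opposing ROR receptors, and the PAR bZIP factors DBP and TEF carry the rhythm to other genes through D-box sequences. Fibroblast and stromal cells in culture carry this clock, and serum, glucocorticoids or a change of medium can set its phase.

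Expression is given in RPM, the reads of a gene scaled to all reads on genes of that library, which the authors computed and deposited. The commonest value, taken as 1 read, put the depth between 7.35 and 9.43 M reads on genes per library, and 3 reads, the lowest amount counted here as detected, corresponded to between 0.318 and 0.408 RPM. All 10 clock genes lay above that level and above 0.5 RPM in every library, from 3.34 RPM for *Per2* in flat culture 2 to 273 RPM for *Tef* in reaggregate 2. RPM is not corrected for gene length, so levels of different clock genes are ordered below only as RPM per kb of exon.

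Libraries did not stand at equal distances from each other. Over the 10 clock genes, the root mean square difference of log2(RPM + 0.5) was between 0.135 and 0.204 for the consecutive reaggregates 1 and 2, 3 and 4, and 5 and 6, whereas any other 2 reaggregates (12 combinations) differed by 0.385 to 0.845. IL-3 was given to 1 culture of each consecutive pair. Flat culture 3 was nearer to the reaggregates, at 0.607 to 0.823, than to the other flat cultures, at 1.18 to 1.5, and flat cultures 2 and 4 differed by 0.489. Over all genes tested, flat culture 3 was at 0.725 from flat culture 1, nearer than to reaggregates 3 to 6, of which the nearest was at 0.743, but not nearer than to reaggregates 1 and 2, at 0.685 and 0.695. Results are therefore given also with consecutive reaggregates averaged and without flat culture 3.

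The stromal label was checked against marker genes. All 8 stromal markers were expressed, *Col1a2* with a mean of 7070 RPM. Their summed level was between 14800 and 22100 RPM in reaggregates and 5940, 8940, 12300 and 6420 RPM across flat cultures 1 to 4. Of the 6 blood markers, 5 were matched, *Ptprc*, *Cd3e* and *Gata1* were listed at 0 in all libraries, and the summed level was at most 1.77 RPM, with *Csf1r* the most abundant. The 5 endothelial markers summed to at most 1.09 RPM, led by *Pecam1*. The 5 adipocyte markers summed to between 213 and 644 RPM in reaggregates and to 320, 990, 470 and 1160 RPM across flat cultures 1 to 4. The cultures with the de Bruijn label were thus highest. *Fabp4* made up most of that difference, at 435 and 711 RPM in flat cultures 2 and 4 and at most 47.2 RPM elsewhere. *Cebpa* averaged 154 RPM with the label and 49.6 RPM without it, *Plin1* 1.32 and 0 RPM, *Lpl* 348 and 306 RPM, and *Adipoq* 0.239 and 0.12 RPM. In bulk samples, fewer cells of a type and less RNA per cell cannot be told apart.

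Several of the clock genes rose in reaggregated cells. Of the 10 clock genes, 5 were called higher in reaggregates and 0 lower, where 7.32% of the 16933 genes tested were called higher and 6.53% lower. *Per1*, *Per2*, *Cry2*, *Nr1d1* and *Tef* rose, from 2.45-fold for *Nr1d1* to 4.95-fold for *Per1*. With consecutive reaggregates averaged, only *Per1* kept its call, and *Per2*, *Cry2*, *Nr1d1* and *Tef* no longer reached an adjusted p of 0.05, at unchanged fold changes. Genes were called where the change reached 2-fold and the limma adjusted p, taken over all genes tested, was at most 0.05. An adjusted p of at most 0.05 at any fold change was reached by 6 of the 10, the sixth being *Dbp*, and by 29.3% of all genes tested. Over all libraries it was not reached by the activator genes *Arntl* and *Clock* or by the repressor genes *Per3* and *Cry1*, and no test was made between these roles. The median log2 fold change of the clock genes was 1.27 and that of all genes tested was 0.04. Fold changes are on the log2(RPM + 0.5) scale, on which changes of weakly expressed genes come out smaller than they are.

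**Figure D1:**
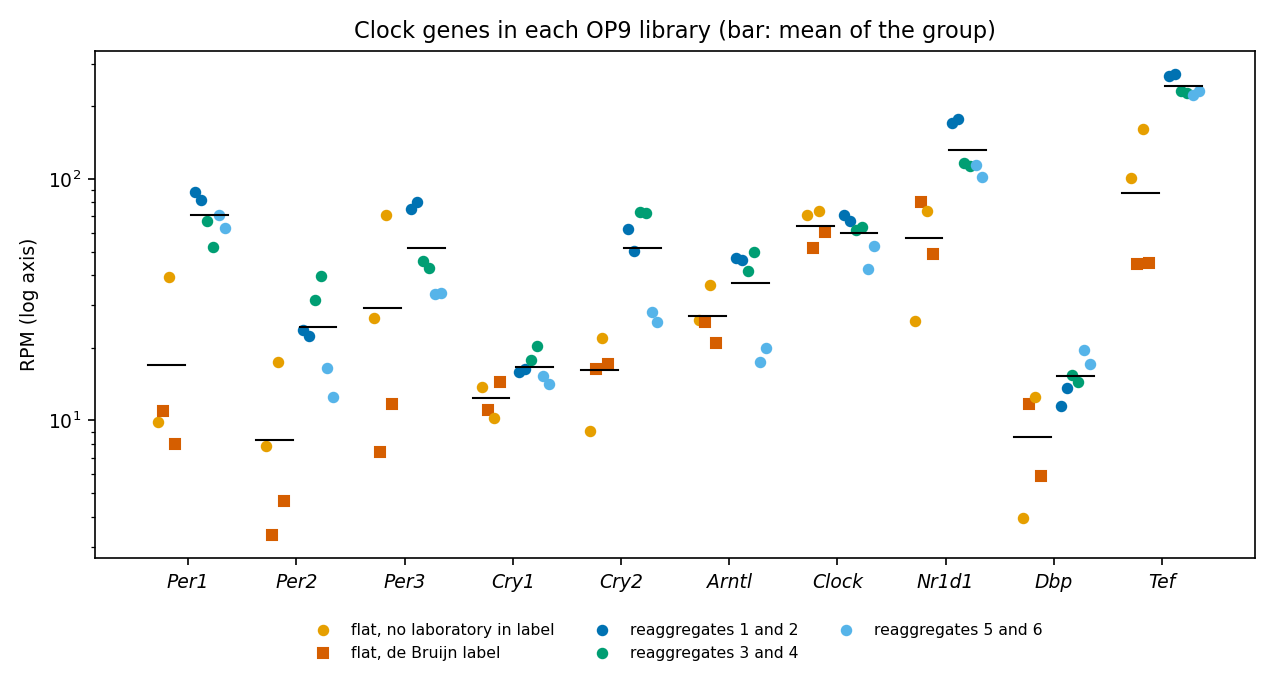
Expression of the 10 clock genes in RPM on a log axis, with 1 point per library, flat cultures on the left and reaggregates on the right of each gene, and a bar at the group mean. Points of *Per1*, *Cry2*, *Nr1d1* and *Tef* do not overlap between the groups, with every reaggregate above, as in 7.8% of all genes tested. Reaggregates 5 and 6 lie below reaggregates 1 to 4 for *Arntl*, *Per2*, *Per3*, *Cry1*, *Cry2* and *Clock*.

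The activators come first. *Arntl* (ENSMUSG00000055116, chr7:120350979-120457636, plus strand, NCBI37/mm9 as are all gene positions here) encodes the bHLH-PAS protein that pairs with CLOCK. Reaggregates 1 to 6 held *Arntl* at 46.9, 46.4, 41.8, 49.8, 17.5 and 20 RPM, and flat cultures 1 to 4 held it at 26, 25.5, 36.4 and 20.9 RPM. Reaggregates 1 to 4 lay above every flat culture and reaggregates 5 and 6 below every flat culture, so the groups overlapped. The mean was 37.1 ± 14.4 RPM (SD, n = 6) after reaggregation against 27.2 ± 6.55 RPM (SD, n = 4), and the log2 fold change of 0.35 had a 95% interval from −0.35 to 1.06 (limma adjusted p = 0.415). Without reaggregates 5 and 6, a choice made after seeing the data, it was 0.78 and passed the test under 2-fold (limma adjusted p = 0.016, range over the alternatives 0.016 to 0.837), as it did in the fit with the replicate number as a block, which also leaves out these reaggregates.

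*Clock* (ENSMUSG00000029238, chr5:76639992-76733817, minus strand) encodes the partner of ARNTL and, in many tissues, cycles little at the RNA level. *Clock* stood at 71, 66.9, 61.8, 63.3, 42.3 and 52.9 RPM across reaggregates 1 to 6 and at 71.2, 51.7, 73.7 and 60.1 RPM across flat cultures 1 to 4. The ranges overlapped almost fully, with reaggregate 5 lowest and flat culture 3 highest. A mean of 59.7 ± 10.4 RPM (SD, n = 6) after reaggregation against 64.2 ± 10.2 RPM (SD, n = 4) gave a log2 fold change of −0.11, with a 95% interval from −0.48 to 0.27 (limma adjusted p = 0.643). A change of *Clock* as large as 2-fold in either direction thus lies outside that interval.

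Among the repressors, the *Per* genes encode the PERIOD proteins, which enter the nucleus with the CRY proteins. *Per1* (ENSMUSG00000020893, chr11:68908719-68923462, plus strand) is also known as an immediate response gene of the clock, induced by cAMP and glucocorticoid signalling. *Per1* was at 88.3, 82.3, 67, 52.5, 71.1 and 62.8 RPM across reaggregates 1 to 6, and at 9.9, 10.9, 39.3 and 8.02 RPM across flat cultures 1 to 4. Every reaggregate lay above every flat culture, as for 4 of the 10 clock genes and for 7.8% of all genes tested, and flat culture 3 lay well above the other flat cultures. From 17 ± 14.9 RPM (SD, n = 4) in the flat cultures, *Per1* rose to 70.7 ± 13.1 RPM (SD, n = 6), which is a log2 fold change of 2.31 with an SE of 0.367 (limma adjusted p = 0.0014). With consecutive reaggregates averaged, *Per1* was the 1 clock gene of 10 still called higher, where 1.84% of all genes were.

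*Per2* (ENSMUSG00000055866, chr1:93312561-93355907, minus strand) encodes the PERIOD protein whose loss most disturbs the rhythm in mice. The libraries gave 23.7, 22.3, 31.6, 39.7, 16.5 and 12.5 RPM across reaggregates 1 to 6 and 7.83, 3.34, 17.5 and 4.62 RPM across flat cultures 1 to 4. Reaggregates 3 and 4 were highest, and reaggregates 5 and 6 lay below flat culture 3 but above the other flat cultures. *Per2* rose from a flat mean of 8.32 ± 6.4 RPM (SD, n = 4) to 24.4 ± 9.95 RPM (SD, n = 6), with a log2 fold change of 1.66 and an SE of 0.427 (limma adjusted p = 0.015). The call was lost without flat culture 4, where the log2 fold change was 1.48.

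*Per3* (ENSMUSG00000028957, chr4:150377761-150418774, minus strand) encodes a PERIOD protein that is dispensable for rhythms in mice. It was at 75.2, 80.5, 45.6, 42.9, 33.3 and 33.6 RPM across reaggregates 1 to 6 and at 26.5, 7.4, 71 and 11.7 RPM across flat cultures 1 to 4. Flat culture 3 came close to reaggregates 1 and 2, and the remaining flat cultures lay below all reaggregates. A mean of 51.9 ± 20.8 RPM (SD, n = 6) after reaggregation against 29.2 ± 29.1 RPM (SD, n = 4) gave a log2 fold change of 1.24 with a 95% interval from 0.09 to 2.39, which missed the threshold (limma adjusted p = 0.0925). Without flat culture 3 it was called, at 1.84. In the set without flat culture 3, 7 of the 10 clock genes were called higher and 12.5% of all genes tested, the additional ones being *Per3* and *Dbp*.

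The cryptochromes *Cry1* and *Cry2* encode flavoproteins that repress the ARNTL and CLOCK pair directly. *Cry2* (ENSMUSG00000068742, chr2:92243803-92274200, minus strand) was at 61.9, 50.3, 73.2, 72.3, 28.2 and 25.5 RPM across reaggregates 1 to 6 and at 9.08, 16.4, 21.9 and 17.1 RPM across flat cultures 1 to 4. The groups did not overlap, and reaggregates 5 and 6 stood closest to the flat cultures. *Cry2* rose from a flat mean of 16.1 ± 5.29 RPM (SD, n = 4) to 51.9 ± 21.1 RPM (SD, n = 6), which is a log2 fold change of 1.60 with an SE of 0.348 (limma adjusted p = 0.00699). The lincRNA gene *D930015M05Rik* lies on the opposite strand within the span of *Cry2* and shares 295 exonic bases with it, but did not exceed 1.19 RPM in any library.

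*Cry1* (ENSMUSG00000020038, chr10:84594447-84647799, minus strand) spanned the narrowest range of fold over the 10 libraries after *Clock*. It was at 15.9, 16.3, 17.8, 20.4, 15.3 and 14.1 RPM across reaggregates 1 to 6 and at 13.7, 11, 10.2 and 14.5 RPM across flat cultures 1 to 4. The ranges met at reaggregate 6 and flat culture 4 only. The mean was 16.6 ± 2.21 RPM (SD, n = 6) after reaggregation against 12.3 ± 2.07 RPM (SD, n = 4), with a log2 fold change of 0.42 and a 95% interval from 0.05 to 0.79 (limma adjusted p = 0.0819). The log2 difference between *Cry2* and *Cry1* within a library, on RPM not corrected for length and so compared only between libraries, averaged 1.50 ± 0.528 (SD, n = 6) for reaggregates and 0.32 ± 0.685 (SD, n = 4) for flat cultures, and was lowest in flat culture 1, at −0.57.

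The nuclear receptor NR1D1 represses *Arntl* by binding ROR elements. *Nr1d1* (ENSMUSG00000020889, chr11:98629246-98636647, minus strand) was at 170, 178, 117, 113, 114 and 102 RPM across reaggregates 1 to 6 and at 25.9, 80.1, 74 and 48.8 RPM across flat cultures 1 to 4. Reaggregates 1 and 2 were highest, the remaining reaggregates lay close together, and none reached down to the flat cultures. *Nr1d1* rose from a flat mean of 57.2 ± 24.9 RPM (SD, n = 4) to 132 ± 32.8 RPM (SD, n = 6), which is a log2 fold change of 1.29 with an SE of 0.298 (limma adjusted p = 0.009). Without flat culture 1, the lowest library, it was 0.96 and under the 2-fold threshold. The log2 difference between *Nr1d1* and *Arntl* within a library was highest in reaggregates 5 and 6, at 2.67 and 2.32, and lowest in flat culture 1, at −0.01.

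*Nr1d1* overlaps *Thra*, the gene of thyroid hormone receptor alpha, tail to tail. *Thra* lies on the plus strand at chr11:98601952-98630320, and the exons of both genes share 263 bases, or 8.42% of the exon length of *Nr1d1*. *Thra* was at 294, 293, 237, 224, 226 and 206 RPM across reaggregates 1 to 6 and at 108, 36.6, 160 and 37.5 RPM across flat cultures 1 to 4. It was higher in every reaggregate, with a log2 fold change of 1.80 and an SE of 0.377 (limma adjusted p = 0.00579). That call was lost with consecutive reaggregates averaged, at an unchanged 1.80, and against the unlabelled flat cultures, at 0.89. Its flat cultures took another order than those of *Nr1d1*, since flat culture 2 was lowest for *Thra* and highest for *Nr1d1*. The study names a TruSeq RNA kit for the libraries, and the sources used here do not say whether counting used the strand. Without it, reads in shared bases cannot be told apart, at this locus or at those of *Cry2*, *Dbp* and *Tef*.

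DBP and TEF belong to the PAR bZIP factors, which activate genes through D-box sequences. *Dbp* (ENSMUSG00000059824, chr7:52960458-52965525, plus strand), a direct target of ARNTL and CLOCK, was at 11.5, 13.6, 15.4, 14.5, 19.6 and 17.1 RPM across reaggregates 1 to 6 and at 3.95, 11.7, 12.5 and 5.9 RPM across flat cultures 1 to 4. Reaggregates 5 and 6 were highest and reaggregate 1 lay within the range of the flat cultures. *Dbp* rose from a flat mean of 8.51 ± 4.23 RPM (SD, n = 4) to 15.3 ± 2.82 RPM (SD, n = 6), which is a log2 fold change of 0.93 with an SE of 0.302 (limma adjusted p = 0.0392), which passed the test but not the 2-fold threshold. Leaving out flat culture 2 or flat culture 3 brought it past that threshold, at 1.12 and 1.15, and leaving out reaggregate 1 brought it just to the threshold, whereas it was 0.63 without flat culture 1. *Dbp* no longer passed the test in 15 of 24 alternatives, among them quantile normalization, consecutive reaggregates averaged and the unlabelled flat cultures alone, and its limma adjusted p ran from 0.0112 to 0.198 over the alternatives. Its last exon overlaps *Sphk2* on the opposite strand (chr7:52964837-52973372) by 491 exonic bases, 16.7% of the exon length of *Dbp*, and *Sphk2* was at 20.1 ± 1.39 RPM (SD, n = 6) with reaggregation and 20.6 ± 8.4 RPM (SD, n = 4) without it, with a log2 fold change of 0.05 and a 95% interval from −0.46 to 0.55.

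**Figure D2:**
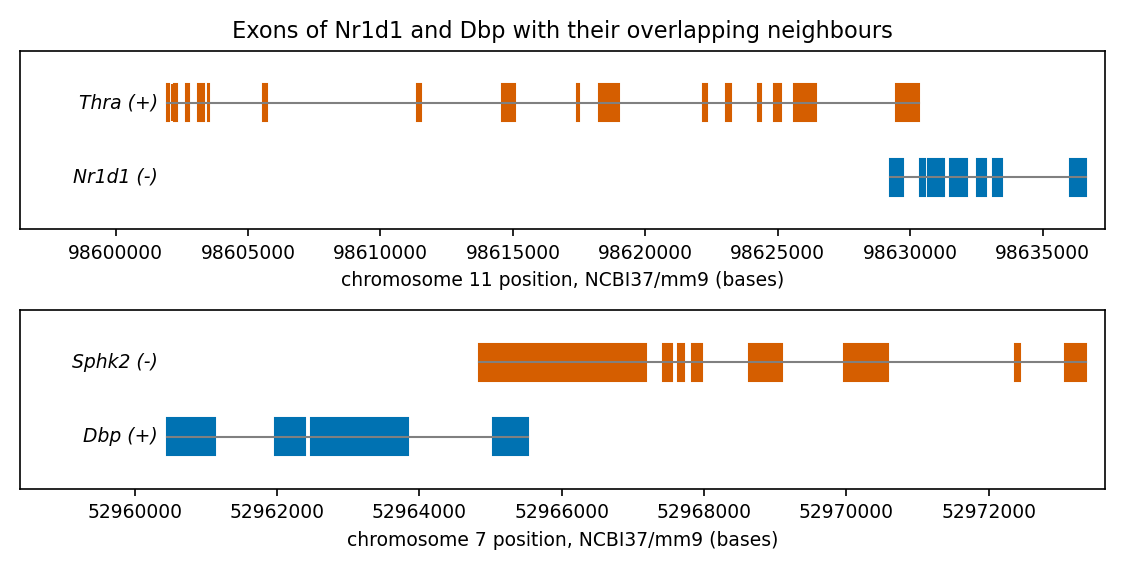
Exons of *Nr1d1* with *Thra* and of *Dbp* with *Sphk2* as boxes along the chromosome in bases (NCBI37/mm9), with the strand in brackets. The genes of each locus run in opposite directions and share 263 and 491 exonic bases at their ends.

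*Tef* (ENSMUSG00000022389, chr15:81632851-81657291, plus strand) differed little among the reaggregates. It was at 268, 273, 231, 228, 223 and 232 RPM across reaggregates 1 to 6 and at 101, 44.7, 161 and 45.1 RPM across flat cultures 1 to 4. All reaggregates lay above the flat cultures, among which both cultures with the de Bruijn label were lowest. *Tef* rose from a flat mean of 88 ± 55.4 RPM (SD, n = 4) to 242 ± 22 RPM (SD, n = 6), which is a log2 fold change of 1.67 with an SE of 0.318 (limma adjusted p = 0.00378). Another lincRNA gene, *Gm17597*, not analysed here, overlaps the 5′ end of *Tef* by 193 exonic bases on the opposite strand.

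Each gene was also tested singly over the libraries. In a two-sided exact permutation test of the difference of means over all assignments of 6 and 4 libraries, 7 of the 10 genes had p of at most 0.05, as did 41.2% of all genes tested. For *Per1*, *Nr1d1* and *Tef*, the exact permutation p was 0.00476, the smallest that this design allows. *Cry1* and *Cry2* each had an exact permutation p of 0.00952, *Per2* and *Dbp* each of 0.0143, *Per3* of 0.0762, *Arntl* of 0.381 and *Clock* of 0.529. With consecutive reaggregates averaged, so that 3 values stood against 4, the smallest possible exact permutation p was 0.0286, which *Cry2* alone of the 10 reached, as did 10.4% of all genes tested, and *Per1*, *Cry1*, *Nr1d1* and *Tef* each had an exact permutation p of 0.0571.

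Which flat cultures served as the reference changed which clock genes were called. Against the flat cultures with the de Bruijn label alone, 6 of the 10 clock genes were called higher, *Per3* among them at a log2 fold change of 2.32, and 15.2% of all genes tested. Against the flat cultures without a laboratory in their label, 3 of 10 were called higher, *Per1* at 1.79, *Cry2* at 1.72 and *Nr1d1* at 1.55, and 3.7% of all genes tested. *Tef* and *Per2* were each at 0.92 in that comparison and *Per3* at 0.16. Without reaggregates 5 and 6, 5 of 10 were called higher and 11.2% of all genes tested. These comparisons share libraries.

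Levels of the clock genes were ordered per kb of exon. In reaggregates, *Nr1d1* led with 42.4 ± 10.5 RPM per kb (SD, n = 6), followed by *Tef* with 30.8 ± 2.79, *Arntl* with 12.7 ± 4.94, *Per1* with 12.5 ± 2.32, *Cry2* with 8.21 ± 3.34, *Clock* with 6.76 ± 1.18, *Cry1* with 5.52 ± 0.733, *Per3* with 5.4 ± 2.16, *Dbp* with 5.19 ± 0.957 and *Per2* with 4.17 ± 1.7. The step from *Tef* to *Arntl* was the only one between neighbours in that order that exceeded their SDs. In flat cultures, *Nr1d1* with 18.3 ± 7.96 RPM per kb (SD, n = 4), *Tef* with 11.2 ± 7.05 and *Arntl* with 9.3 ± 2.24 again led, *Clock* came next with 7.27 ± 1.16, and *Per2* was lowest with 1.42 ± 1.1. The step from *Clock* to *Cry1*, at 4.1 ± 0.688, was the only one in flat cultures beyond the SDs, and *Per3*, *Per1*, *Dbp* and *Cry2* followed between 3.03 and 2.55. *Per1* thus stood above *Clock* per kb in reaggregates and below it in flat cultures.

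Within the reaggregates, the clock genes did not vary in parallel. Reaggregates 1 and 2 were highest for *Per1*, *Per3*, *Nr1d1*, *Tef* and *Clock*, reaggregates 3 and 4 for *Per2*, *Cry1* and *Cry2*, and reaggregates 5 and 6 for *Dbp*. *Arntl*, *Per2*, *Cry1*, *Cry2*, *Per3* and *Clock* were lowest in reaggregates 5 and 6. The log2 difference between *Dbp* and *Arntl* within a library was between −1.98 and −1.41 in reaggregates 1 to 4, 0.16 in reaggregate 5 and −0.22 in reaggregate 6, and it was between −2.57 and −1.09 in flat cultures. No label separates these reaggregates other than IL-3, which alternates within each pair, and no test was made between pairs of reaggregates.

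Among 22 further genes of the clock, listed by role, 21 were tested, 4 were called higher in reaggregates and 1 lower. Of all genes tested, 7.32% were called higher and 6.53% lower. An adjusted p of at most 0.05 was reached by 8 that were higher and 1 that was lower, which is 9 of 21 where 29.3% of all genes reached it, and 12 did not pass. Their median log2 fold change was 0.61. With consecutive reaggregates averaged, 2 of the 21 were called, both higher, where 1.84% of all genes were.

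Of 5 further activators, 1 was called. *Rora*, a receptor that activates *Arntl* through the elements that NR1D1 also binds, was at 33.4, 36.1, 37, 46.1, 12.4 and 13 RPM across reaggregates 1 to 6 and at 2.65, 16.7, 12.8 and 8.75 RPM across flat cultures 1 to 4. Reaggregates 1 to 4 were clearly above the flat cultures, and reaggregates 5 and 6 lay among them. *Rora* rose by a log2 fold change of 1.57 with an SE of 0.509 (limma adjusted p = 0.0379). It lost its call with consecutive reaggregates averaged, at an unchanged 1.57. The call was also lost against the de Bruijn flat cultures, at 1.09, and against the unlabelled ones, at 2.05. The paralog of *Clock*, *Npas2*, did not exceed 1.38 RPM, and that of *Arntl*, *Arntl2*, was at 10.6 ± 4.69 RPM (SD, n = 6) with reaggregation and 13.6 ± 5.99 RPM (SD, n = 4) without it, with a log2 fold change of −0.39 and a 95% interval from −1.25 to 0.47. As for *Arntl*, reaggregates 5 and 6 had the lowest *Arntl2*, at 5.86 and 4.04 RPM.

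Of 7 further repressors, 2 were called higher and 1 lower, and another 2 passed the test under 2-fold. *Nr1d2*, the paralog of *Nr1d1*, was at 116, 109, 132, 141, 91.4 and 103 RPM across reaggregates 1 to 6 and at 73.8, 37, 52.4 and 53.1 RPM across flat cultures 1 to 4. It lay higher in every reaggregate, at a log2 fold change of 1.11 with an SE of 0.192 (limma adjusted p = 0.00227). *Bhlhe40*, which encodes a bHLH repressor that competes for E-boxes, had the largest change of the listed repressors. It was at 396, 379, 268, 210, 259 and 261 RPM across reaggregates 1 to 6 and at 56.8, 135, 77.4 and 71.4 RPM across flat cultures 1 to 4, without overlap, and rose by a log2 fold change of 1.83 with an SE of 0.25 (limma adjusted p = 6.23e-04). *Nr1d2* and *Bhlhe40* were the 2 genes still called when consecutive reaggregates were averaged, although *Nr1d2* was under 2-fold, at 0.87, against the unlabelled flat cultures.

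*Timeless* fell, at a log2 fold change of −1.11 with an SE of 0.349 (limma adjusted p = 0.0338). Its product is best known in mammals for its place at the replication fork. It was between 8.6 and 17.2 RPM in reaggregates and at 33.2, 15.2, 56.2 and 18.2 RPM across flat cultures 1 to 4, so the cultures with the de Bruijn label stood closest to the reaggregates. The call was lost in 4 of 7 alternatives, at −0.44 against the de Bruijn flat cultures and −0.76 without flat culture 3. It was also lost with consecutive reaggregates averaged, at −1.11, and without reaggregates 5 and 6, at −1.14. *Cipc*, whose product inhibits CLOCK, and *Nfil3*, which encodes the bZIP repressor that competes with DBP and TEF for D-boxes, passed the test at log2 fold changes of 0.72 and 0.79 (limma adjusted p = 0.0191 and 0.0327), but not with consecutive reaggregates averaged or against the unlabelled flat cultures, and *Nfil3* also not against the de Bruijn flat cultures. Both were higher in every reaggregate than in every flat culture, and *Nfil3* was highest in reaggregates 3 and 4, at 55.3 and 54.8 RPM.

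Of 6 kinases and ubiquitin ligases that act on clock proteins, 3 passed the test, where 29.3% of all genes tested passed, and all 3 were higher in reaggregates. *Csnk1e*, which encodes casein kinase 1 epsilon, was called, with 126, 123, 130, 137, 75.9 and 71.3 RPM across reaggregates 1 to 6 and 51.6, 30.6, 114 and 31.6 RPM across flat cultures 1 to 4. Flat culture 3 lay above reaggregates 5 and 6, and the log2 fold change was 1.12 with an SE of 0.353 (limma adjusted p = 0.0342). It lost its call with consecutive reaggregates averaged, at an unchanged 1.12, and against the unlabelled flat cultures, where it was 0.48. *Csnk1d*, which encodes casein kinase 1 delta, and *Gsk3b*, which encodes glycogen synthase kinase 3 beta, passed under 2-fold, at log2 fold changes of 0.49 and 0.81 (limma adjusted p = 0.0273 and 0.0129), but not with consecutive reaggregates averaged or against the unlabelled flat cultures. Of 4 further output genes, 3 were tested and 0 passed. *Usp2*, chosen after its values were seen, was at a log2 fold change of 1.33 (limma adjusted p = 0.0712) and was called with quantile normalization, without flat culture 3, at 1.88, and against the de Bruijn flat cultures, at 2.51, while it was 0.15 against the unlabelled ones. *Hlf*, the PAR bZIP paralog of *Dbp* and *Tef*, was listed at 0 in all libraries.

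**Figure D3:**
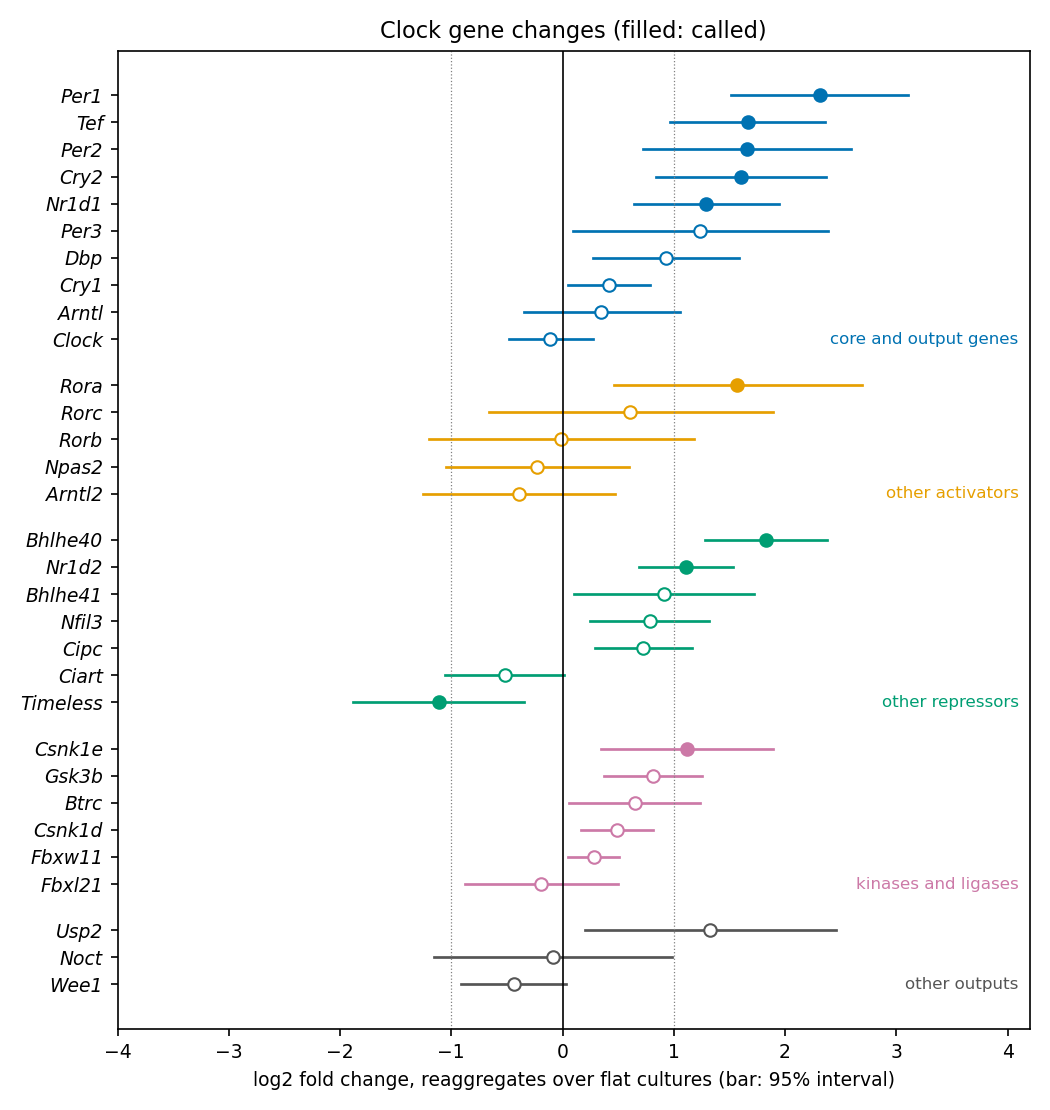
Log2 fold change of reaggregates over flat cultures for the 10 clock genes and the 21 further clock genes tested, with bars for the 95% interval from limma, filled points for genes called and dotted lines at a 2-fold change. Among the 10, *Clock* and *Arntl* have intervals that include 0, and over all genes shown *Timeless* is the 1 gene called lower.

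IL-3, a cytokine that acts on blood cells, was compared within the reaggregates, 3 with and 3 without. The clock genes showed no call for IL-3, and none of all genes tested was called (0%). limma gave 68 genes an unadjusted p of at most 0.05. A fit with consecutive reaggregates as a block, which compares the cultures of each pair, called 0 of the 10 as well. In that fit, the 95% interval of every clock gene stayed within a 2-fold change, and *Arntl*, at −0.02, 0.25 and 0.19 in the 3 pairs, had a mean log2 difference of 0.14 with an interval from −0.05 to 0.33. Without the block the *Arntl* interval was wider, from −1.06 to 1.34, since it takes in the difference between pairs. *Per1* and *Cry2* were lower with IL-3 in all 3 pairs, and 21.5% of all genes tested took 1 direction in all 3. The *Per1* difference was −0.21 with an interval, not adjusted for the number of genes, from −0.37 to −0.05. That of *Cry2* was −0.15, from −0.33 to 0.02, and each gene had a limma adjusted p of 0.982. In the fit with the block, 3.33% of all genes tested had an unadjusted p of at most 0.05.

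The flat cultures were compared by label, the 2 that name the de Bruijn laboratory against the 2 that name none. *Per3* and *Tef* had the largest differences among the clock genes, both lower with the de Bruijn label, and 0 of the 10 was called, where 5.7% of all genes tested were. *Per3* averaged 9.55 RPM with the label and 48.8 RPM without it (log2 difference −2.16, 95% interval −3.54 to −0.79, limma adjusted p = 0.0903), and *Tef* averaged 44.9 and 131 RPM (−1.50, interval −2.30 to −0.70, limma adjusted p = 0.0624). For *Per2* the difference was −1.47 and for *Per1* −1.05, and for *Cry1*, *Cry2*, *Nr1d1* and *Dbp* it was between 0.09 and 0.51. The median over all genes was −0.17 in this comparison and −0.02 after median-ratio scaling. A stricter filter, of 1 RPM in every library of a group, called *Per3* and *Tef* lower with the label. In that fit 1169 of 13986 genes tested were called lower. Quantile normalization called *Tef* lower, where 799 of 16933 genes tested were.

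Further lists of genes were measured beside the clock genes, and their counts stand beside 7.32% of all genes called higher and 6.53% called lower, or 1.84% and 2.53% with consecutive reaggregates averaged. Of 7 immediate early genes, 3 were called higher in reaggregates, and 1 of them with consecutive reaggregates averaged. Their median was 0.91 on the log2 scale. The genes summed to 2310, 1850, 1910, 2020, 2380 and 1910 RPM across reaggregates 1 to 6 and 268, 418, 2140 and 527 RPM across flat cultures 1 to 4. Flat culture 3, which was the highest flat culture for every clock gene except *Cry1* and *Nr1d1*, was within the range of the reaggregates in that sum. Of the 7 genes, 3 were above every reaggregate in flat culture 3, *Egr1* among them at 1030 RPM, 3 lay within the range of the reaggregates and 1 lay below it. That gene was *Nr4a1*, named after its values were seen, at 166 RPM, where reaggregates were between 371 and 695 RPM. Of 6 glucocorticoid-induced genes, 2 were called higher and 1 lower, with a median of 0.58. With averaging only the call of the lower gene was kept. The list summed to between 489 and 908 RPM in reaggregates and between 467 and 685 RPM in flat cultures. All 8 proliferation genes were called lower in reaggregates, with a median of −1.85. With consecutive reaggregates averaged 5 of them were called, as against the de Bruijn flat cultures, where 10.5% of all genes were called lower. They summed to between 264 and 395 RPM in reaggregates and to 1850, 680, 1510 and 874 RPM across flat cultures 1 to 4. Of the 5 adipocyte markers, *Fabp4* and *Cebpa* were called lower in reaggregates, at −2.37 and −1.36, and 0 of the 5 with averaging. Of the 8 stromal markers, 5 were called higher and 1 lower, with a median of 1.35, and 2 were called with averaging. The part of any of these in the levels of the clock genes was not tested.

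The genes most like 3 of the clock genes were found by the smallest root mean square difference of log2(RPM + 0.5), centred on each gene, over the 10 libraries among 11661 genes with a mean of at least 5 RPM. Nearest to *Arntl* were *Sfxn2* (0.161), *Tle4* (0.168) and *Slc38a9* (0.171). *Sfxn2* was at 7.38 and 6.91 RPM in reaggregates 5 and 6 and between 13.9 and 17.1 RPM in reaggregates 1 to 4. Nearest to *Nr1d1* were *Chst2* (0.167), *Ltbp3* (0.185) and *Nuak1* (0.202), and nearest to *Dbp* were *Col6a3* (0.18), *Lrp10* (0.228) and *Cul7* (0.231). None of these 9 genes is among the listed clock genes. Listed clock genes are few among the 11661, so this would be usual for any 9 genes.

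Promoters of the clock genes are shown because several of the genes were higher together and because their control sequences are well known. RefSeq windows from 250 bases upstream to 50 bases downstream of the transcription start (GRCm38.p6) were used. They were matched by symbol for 9 of the 10 genes, with 14 windows, and *Per2* was not analysed here. The E-box CACGTG was found in 4 of the 14 windows, those of *Per1*, *Cry1* and *Tef*, and in 7.15% of all 32851 windows. The D-box, searched as TTATGTAA or TTATGCAA on both strands, was found in 2 of the 14, of *Per1* and *Per3*, and in 1.66% of all. The core of the ROR element, TAGGTCA or TGGGTCA on both strands, was found in 1, of *Arntl*, and in 6.45% of all, and the cAMP response element TGACGTCA in 0 and in 1.79% of all. A match describes the letters in the window and does not show binding. *Per1* at chr11:69098699-69098948 (plus strand), an internal start within an intron of the longer *Per1* transcript, holds an E-box and, close to the start, a D-box, both in capitals, and *Per3* at chr4:151044666-151044915 (minus strand) holds a D-box at 2 positions, in capitals and as TTATGTAA, where *Per1* has TTATGCAA.
Per1: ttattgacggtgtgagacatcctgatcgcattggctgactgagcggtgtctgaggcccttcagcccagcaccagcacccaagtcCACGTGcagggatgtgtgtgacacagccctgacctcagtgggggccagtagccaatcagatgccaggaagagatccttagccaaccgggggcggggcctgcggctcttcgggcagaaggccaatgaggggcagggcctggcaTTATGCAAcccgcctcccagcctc
Per3: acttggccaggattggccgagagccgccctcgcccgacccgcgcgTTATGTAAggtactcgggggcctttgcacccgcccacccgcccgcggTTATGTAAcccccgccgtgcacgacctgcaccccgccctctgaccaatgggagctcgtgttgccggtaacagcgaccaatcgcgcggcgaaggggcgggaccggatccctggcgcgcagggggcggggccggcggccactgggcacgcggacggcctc
An E-box stands in capitals in the sequence upstream of *Cry1* at chr10:85185055-85185304 (minus strand), and in the sequence upstream of the internal start of *Tef* at chr15:81811164-81811413 (plus strand). The other window of *Tef* with a match also holds an E-box, which lies within an annotated exon of *Tef*. In *Arntl*, the ROR element core lies after the start, within the first exon, and 30 bases around it are given from chr7:113207529-113207558 (plus strand), with the core in capitals.
Cry1: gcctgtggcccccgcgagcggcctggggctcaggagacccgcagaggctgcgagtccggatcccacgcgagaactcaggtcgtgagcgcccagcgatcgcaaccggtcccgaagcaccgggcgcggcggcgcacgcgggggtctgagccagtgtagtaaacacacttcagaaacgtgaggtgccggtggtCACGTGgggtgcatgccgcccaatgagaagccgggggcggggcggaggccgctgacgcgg
Tef: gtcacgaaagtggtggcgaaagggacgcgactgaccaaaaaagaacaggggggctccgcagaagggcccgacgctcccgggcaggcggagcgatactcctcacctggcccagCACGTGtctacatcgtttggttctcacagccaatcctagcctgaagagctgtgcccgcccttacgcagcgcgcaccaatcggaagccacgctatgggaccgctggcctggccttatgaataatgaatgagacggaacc
Arntl: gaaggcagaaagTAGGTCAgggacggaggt
*Cry1*, which has an E-box in this window, did not pass the test, whereas *Per1* and *Tef* were called higher. *Cry2* and *Nr1d1* were also called higher, and no E-box was found in their windows. Only the exact letters CACGTG within these windows were searched, so other forms and sites farther away were not seen. Whether E-boxes had a part in the changes was not tested.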

How the data were processed

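Per the labels and methods, the authors used TopHat 1.2.0 and the NCBI37/mm9 assembly, counted reads on Ensembl genes with shared reads divided, and deposited RPM per gene and library. Between 22.8% and 34.8% of the values above 0 and up to 10 RPM lay within 0.02 of a whole number of reads, so no count test was run. Columns holding the authors' DESeq fold changes and p-values for the same groups were not used. The members and lists were chosen with earlier results of these data known. Genes above 0.5 RPM in at least 1 library were compared on log2(RPM + 0.5) with limma 3.58.1 in R 4.3.3 (mean-variance trend, Benjamini-Hochberg adjustment), after the fit had been tested on simulated data. Exon lengths and gene positions came from GENCODE on the same assembly, in a later release than the authors used. Named genes were the 10 clock genes, paralogs and listed clock genes with adjusted p of at most 0.05, overlapping genes, and the 3 genes most alike. Of the further clock genes, *Ciart*, *Cipc* and *Noct* were matched by synonym. One item of the lists is not reported here and was left out of their counts. Floors cover counting error only. Alternatives changed pseudocount, filter, scaling, trend and libraries. Figures used matplotlib 3.10.9 in Python 3.11.15.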

Additional observations from a re-analysis of the deposited data

Results flagged for a closer look

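*Per1* in flat culture 3, at 39.3 RPM, lay far from the other flat cultures, of which the nearest was at 10.9 RPM. The gap was 0.908 of the range of the 4 flat cultures. Among 62 groups of libraries examined over the 10 clock genes and the further clock genes, this was the 1 that passed Dixon's test at 95%. Chance gives about 3.1 if libraries are independent. Consecutive reaggregates were alike, so that figure may be too high for groups of reaggregates. Without flat culture 3 *Per1* was still called higher in reaggregates, at a log2 fold change of 2.81.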

How the results depend on the processing

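The number of genes called between reaggregates and flat cultures (2345) was 741 with consecutive reaggregates averaged, 637 with only the IL-3 reaggregates, 819 with only those without IL-3 and 4354 against the de Bruijn flat cultures. Leaving out 1 library gave 1581 to 3643. The 5 clock genes called higher became 1 with consecutive reaggregates averaged, where 1.84% of all genes were called higher. With only the reaggregates with and without IL-3 they became 1 and 2, where 277 and 345 of 16933 genes tested were called higher. Against the unlabelled flat cultures they became 3, where 3.7% of all genes were called higher. They were 4 to 7 with 1 library left out, where 766 to 2121 genes were called higher. With averaging, 1 clock gene in place of 7 passed the exact permutation test, where 10.4% of all genes in place of 41.2% did. These fits hold fewer samples, and the cause of the changed counts was not tested. Of 24 alternatives, *Per1* was called in all, *Cry2* lost its call in 2, *Nr1d1* and *Tef* in 4 each and *Per2* in 5, all with the same direction, scaling included. *Clock*, never called, was 0.05 with the replicate block, 0.08 against the de Bruijn flat cultures and 0.05 without reaggregates 5 and 6, the last chosen after seeing the data. Replicate numbers gave no clear sign of pairing. Same-numbered libraries deviated with r of −0.041, −0.213, 0.072 and 0.155, and libraries of unlike numbers with r between −0.265 and 0.381. Consecutive reaggregates were alike, so these values cannot settle pairing. The fit with the replicate block called 3038 genes. IL-3 gave 0 calls in all 14 alternatives. The 965 genes called by flat culture label (309 higher and 656 lower with the de Bruijn label) became 166 without a filter, 1667 with the stricter filter, where 2 clock genes were lower, and 0 without any 1 library, where 1 arm held a single library and only the other gave the spread. Quantile normalization called 646 higher and 799 lower. Depth limits *Npas2* and the other genes near 0.408 RPM.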
